A study of Mus musculus with 4 samples.

Results

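The regions described here are genomic sites at which FLAG chromatin immunoprecipitation gave a peak in the Etv6 library and in the library titled EGFP_OK, but no peak in the Pax6 library. They were chosen by the peak calls themselves: an Etv6 peak on chromosomes 1 to 19 was a member when at least 1 bp of it was covered by an EGFP_OK peak and none of it by a Pax6 peak. Of the 30368 Etv6 peaks on these chromosomes, 3129 were members, which is 10.3%. The presence or absence of a peak in the 3 FLAG lists is therefore the rule and not a finding. The H3K4me2 list was not used to choose them. Each member was then called marked when its Etv6 summit, the position of highest tag pile-up, lay inside an H3K4me2 peak, and unmarked otherwise.

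The data are ChIP-seq peak lists from mouse neural progenitor-like cells, which came from 129/SvJ embryonic stem cells and were used at passages 15 to 18. All cells were expanded in medium with the growth factors EGF and FGF-2, and 1 library was made per factor or mark, with no input or untagged control. The Etv6 and Pax6 titles read NS-F-Etv6 and NS-F-Pax6, the EGFP_OK title names N31, EGFP, OK and flag, and the H3K4me2 title names N31, Oct4, EGFP and 0 hr. All FLAG libraries were precipitated with the same M2 antibody, but the sources used here do not name the tagged protein of the EGFP_OK library, the promoter that drove any tagged protein or the number of cell clones. The EGFP_OK and H3K4me2 libraries thus share the N31 name and the Etv6 library does not, so a difference between cells and one between tagged proteins cannot be told apart. With peak lists alone the labelled cell type could not be checked against expressed markers.

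Etv6 is a member of the ETS family of transcription factors, which bind DNA at a short GGAA core. It carries a pointed domain through which it forms oligomers, and it is best known as a repressor needed in blood formation. Pax6 is a paired-box and homeobox factor of the developing eye and forebrain, where it acts in neural progenitors. Dimethylation of histone H3 at lysine 4 (H3K4me2) is found at active and poised promoters and enhancers, often flanking the bound factor on neighbouring nucleosomes.

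The libraries kept between 5288154 (Pax6) and 24550365 (H3K4me2) tags after duplicates were removed, with 24071748 for Etv6 and 21498324 for EGFP_OK. The share of redundant tags was 81% in Pax6 and between 16% and 39% in the others. On chromosomes 1 to 19 there were 27730 EGFP_OK, 16233 Pax6 and 48520 H3K4me2 peaks. Because no group had a second library, every interval below is a 95% interval for counting error only and treats neighbouring peaks as independent, and no test between conditions was possible.

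Members were ordinary peaks of moderate height in both libraries. Their Etv6 peaks held between 19 and 503 tags, with a median of 54 (quartiles 40 and 77), and their EGFP_OK peaks between 19 and 545, with a median of 49 (36 and 72). The authors' fold enrichment over local background had a median of 5.89 in Etv6 and 6.23 in EGFP_OK, each within its own list. Scaled by the kept tags of each library, the EGFP_OK tags of a member were at a median of 1.01 times its Etv6 tags, with quartiles of 0.692 and 1.54, so neither library was generally the stronger one. The first 1000 Etv6 peaks by score held 17 members, while members were 10.3% of the whole list. The first 1000 EGFP_OK peaks held 87 members, near the 11.3% of that list that members touched.

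The overlaps were mostly deep. Each of 3124 members met 1 EGFP_OK peak and the other 5 met 2, and together they touched 3121 EGFP_OK peaks, or 11.3% of that list. For comparison, 19.4% of all Etv6 peaks overlapped an EGFP_OK peak and 61.1% overlapped no Pax6 peak, both of which are conditions of the rule. The shared stretch had a median of 952 bp (quartiles 790 and 1129 bp), against a median length of 1131 bp for the Etv6 peaks, and 37 members shared less than 100 bp. The member with the least overlap, on chromosome 1 at 65582040 to 65582792, shared 1 bp, and the nearest Etv6 peak just outside the rule, on chromosome 1 at 180703023 to 180703988, lay 6 bp from an EGFP_OK peak. On the Pax6 side, the closest member (chromosome 13, 54683268 to 54684208) lay 1 bp from a Pax6 peak, while an excluded site on chromosome 16 (63863525 to 63864788) shared 23 bp with one. Such border cases were few, since 53 members (1.69%) had a Pax6 peak within 1 kb, and the median member lay 33.7 kb from the nearest.

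The absence of a Pax6 call followed the height of the Etv6 peak. Among Etv6 peaks that met an EGFP_OK peak, the share without Pax6 was 14.3% (12.0 to 16.8) in the highest 10% of the Etv6 list by score and 80.3% (75.8 to 84.2) in the lowest 10%. Among Etv6 peaks without EGFP_OK the same shares were 13.8% (12.4 to 15.3) and 86.0% (84.6 to 87.3), so the intervals overlapped in the highest 10% and not in the lowest. Lower shares with EGFP_OK and intervals apart were also seen in the fifth, seventh and eighth parts of the list, for example 69.1% (64.7 to 73.3) against 77.6% (75.9 to 79.2) in the seventh. The following projections assume that Pax6 tags scale with Etv6 tags, which was not tested. From the ratio of kept tags, 0.220, the median member would hold 11.9 tags in the Pax6 library. The median ratio at the 11798 sites where both were called, 0.290, gives 15.7, but only sites that passed the Pax6 call entered it, which favours a higher ratio. The smallest Pax6 peak held 10 tags and the median one 19. By the ratio of kept tags, 35.8% of members would hold fewer than 10 tags and 599 of them (19.1%) more than 19. By the ratio at called sites, 1098 (35.1%) would hold more than 19. At this depth the lack of a Pax6 call does not show that Pax6 was missing.

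To relate these sites to active chromatin, the Etv6 summits were placed on the H3K4me2 peaks. Of the 3129 members, 2381 were marked, which is 76.1% (74.6 to 77.6), and 748 were unmarked. Of all Etv6 summits on these chromosomes, 52.4% were inside H3K4me2, and of all EGFP_OK summits 27.3%. Etv6 peaks shared with both EGFP_OK and Pax6 had 73.0% (71.3 to 74.6), those with neither had 48.1% (47.3 to 48.9), and those with Pax6 but no EGFP_OK had 45.3% (44.3 to 46.4). The share of members was above that of the sites with both partners by 3.14 percentage points (0.889 to 5.40), but this interval reached below 0 when summits had to lie within 200 bp (-0.0720 to 5.58) or both peaks had to score at least 100 (-0.541 to 8.20). Members exceeded the Etv6 peaks with neither partner by 28.0 percentage points (26.3 to 29.7) and those with Pax6 by 30.8 (28.9 to 32.6). The part that the shared N31 name of the EGFP_OK and H3K4me2 libraries has in this was not tested.

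The classes differed in Etv6 score, and the order held when peaks of like score were compared. At an Etv6 score of 100 to 200, 82.4% (80.0 to 84.6) of 1129 members were marked, against 73.5% (70.8 to 76.0) of 1124 sites with both partners, 55.4% (53.8 to 56.9) of those with neither and 45.6% (44.0 to 47.2) of those with Pax6. Below 100, the share of members was 71.3% (69.1 to 73.4), against 63.8% (60.1 to 67.4) of sites with both partners. At 200 or above it was 84.2% (78.3 to 89.0) of 196 members, against 79.2% (76.4 to 81.7), and these intervals overlapped. Members were higher than peaks with neither partner and than those with Pax6 in 10 of 10 parts of the Etv6 list by rank, and higher than sites with both partners in 9 of 10. Weighting the other classes to the score of the members widened the gap to the sites with both partners from 3.14 to 8.41 percentage points. At 599 members the Etv6 tags, scaled by the ratio of kept tags, exceeded the tags of the median Pax6 peak. Of these members, 78.3% (74.8 to 81.5) were marked, against 77.4% (75.1 to 79.6) of the 1359 sites with both partners past the same tag limit. This limit rests on Etv6 tags only, since Pax6 tags at members were not counted. The sites with both partners were not matched in height above that limit.

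**Figure D1:**
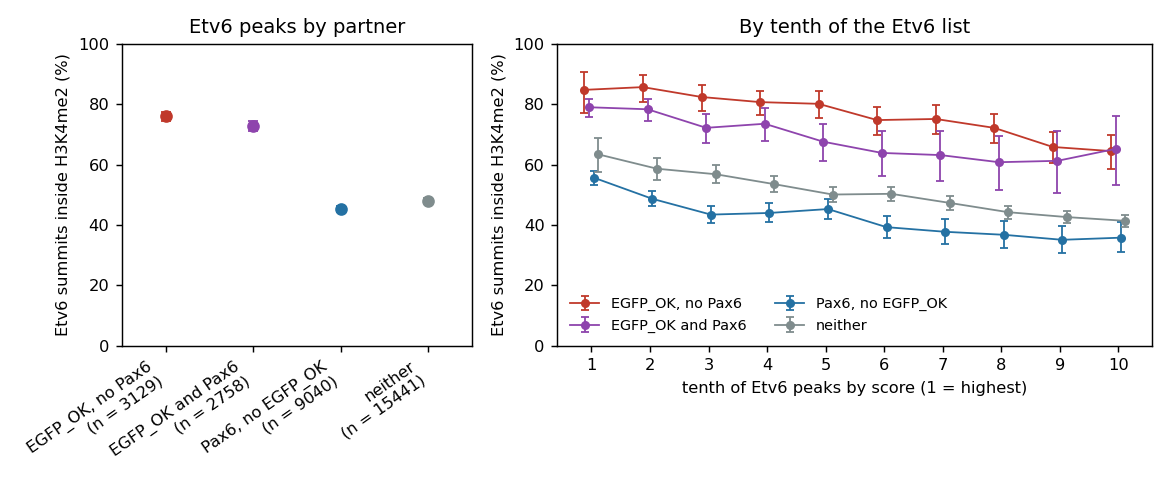
Share of Etv6 summits inside an H3K4me2 peak, in percent, by which other FLAG peaks the Etv6 peak overlapped (left) and within 10 equal parts of the Etv6 list by score (right); bars are exact 95% intervals for counting error. Both classes with EGFP_OK lie above both classes without it, and members run from 84.8% in the highest part to 64.5% in the lowest.

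The 2 summits of a member nearly always had the same marking. This is largely set by their closeness, since they lay a median of 144 bp apart and the H3K4me2 peaks around marked members were a median of 2586 bp wide. Both were inside H3K4me2 at 2310 members (73.8%) and both outside at 704 (22.5%). At 71 members the Etv6 summit alone was inside, and at 44 the EGFP_OK summit alone. Where both were inside, they lay in the same H3K4me2 peak at 2265 members.

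Marking went with the height of the 2 partners in different ways. Ranked by EGFP_OK fold enrichment, 55.6% (49.9 to 61.2) of the highest 10% of members were marked and 62.3% (56.7 to 67.7) of the next 10%, against 74.8% to 86.3% in the other 8 parts. Ranked by Etv6 fold enrichment, the shares ran from 73.2% to 78.9% with no such drop. Members with an EGFP_OK fold of at least 8.25 and an Etv6 fold under 7.51 were marked in 56.7% of cases (52.0 to 61.2), and those with the reverse in 82.0% (78.2 to 85.4). Members under both limits had 80.0% (78.2 to 81.7), and those at or above both had 65.8% (58.0 to 73.1). The Etv6 score went the other way from the EGFP_OK score. The highest 10% of members by Etv6 score had 85.3% (80.9 to 89.0) and the lowest 64.7% (59.2 to 70.0), whereas by EGFP_OK score the values were 59.1% (53.4 to 64.6) and 79.5% (74.6 to 83.8). Sites that also had Pax6 showed the same direction with EGFP_OK fold, from 61.6% (55.6 to 67.4) in the highest 10% to 77.8% (72.4 to 82.6) in the lowest. By EGFP_OK score they did not, since the highest 10% had 69.2% (63.4 to 74.6) and the lowest 71.6% (65.9 to 76.9), with overlapping intervals. By EGFP_OK tags the direction was opposite in the 2 classes: the highest and lowest 10% had 77.2% (71.8 to 82.0) and 65.8% (59.9 to 71.4) for sites with Pax6, and for members 64.9% (59.3 to 70.1) and 80.4% (75.6 to 84.7).

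**Figure D2:**
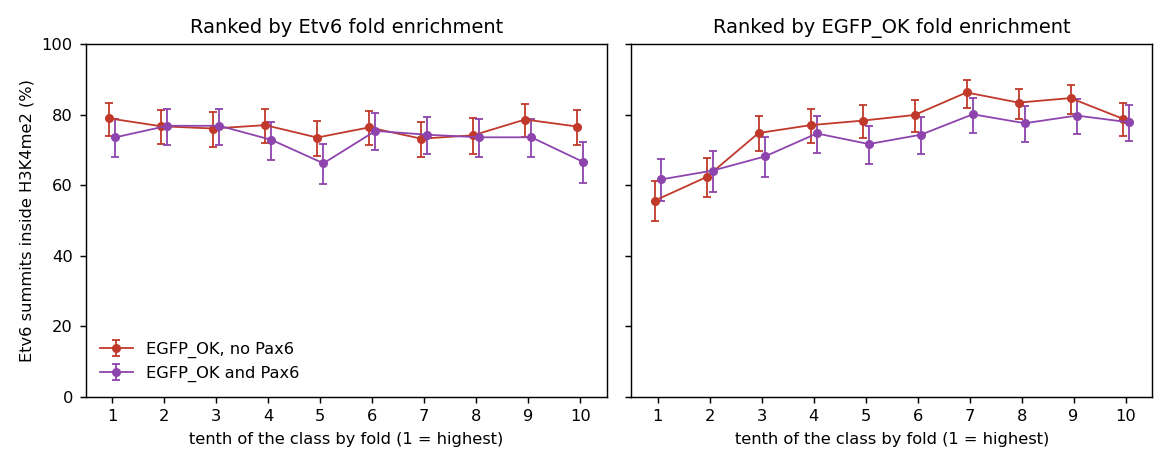
Share of Etv6 summits inside H3K4me2, in percent, for members and for sites that also had Pax6, in 10 equal parts of each class by the authors' fold enrichment in the Etv6 list (left) and in the EGFP_OK list (right); bars are exact 95% intervals. For members the share stays between 73.2% and 78.9% on the left, and is 55.6% at the highest EGFP_OK folds on the right.

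Seen the other way round, unmarked members had higher EGFP_OK values at a like Etv6 fold. The median EGFP_OK fold was 7.02 (interval of the median 6.69 to 7.24) at unmarked and 5.97 (5.95 to 6.08) at marked members. The median Etv6 fold was 5.86 (5.74 to 6.02) and 5.90 (5.81 to 5.99). In tags, unmarked members held a median of 54 in EGFP_OK and 47 in Etv6, and marked members 47 and 56, so the order of the libraries was exchanged. Scaled by kept tags, EGFP_OK stood at 1.22 times Etv6 (1.15 to 1.30) at unmarked and 0.960 times (0.933 to 0.983) at marked members. The EGFP_OK fold exceeded the Etv6 fold at 65.4% of unmarked and 51.6% of marked members. Sites that also had Pax6 showed the same direction in EGFP_OK fold, with medians of 7.355 (7.08 to 7.64) unmarked and 6.64 (6.50 to 6.72) marked. Their EGFP_OK tags did not, at 55 (52 to 59) unmarked and 59 (57 to 61) marked, with overlapping intervals. Spearman's rho between the folds across members, which share their libraries and local background and are not replicates, was 0.20 for unmarked and 0.22 for marked members.

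The 2 summits of a member lay a median of 144 bp apart (132 to 152), and 40.2% (38.4 to 41.9) were within 100 bp. The median was 139 bp (126 to 150) at marked and 155 bp (138 to 177) at unmarked members, with overlapping intervals. Sites that also had Pax6 were closer, at a median of 118 bp (111 to 126) with 45.5% (43.6 to 47.3) within 100 bp. Their median Etv6 fold was also higher, at 7.08 against 5.89 for members, and the classes were not matched for height here. Members with summits up to 50 bp apart had a median Etv6 fold of 6.51 and an EGFP_OK fold of 6.58, and those over 500 bp apart 5.35 and 5.95. The marked share was 77.7% (74.5 to 80.6) at up to 50 bp and 72.2% (68.5 to 75.6) at over 500 bp, with overlapping intervals.

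**Figure D3:**
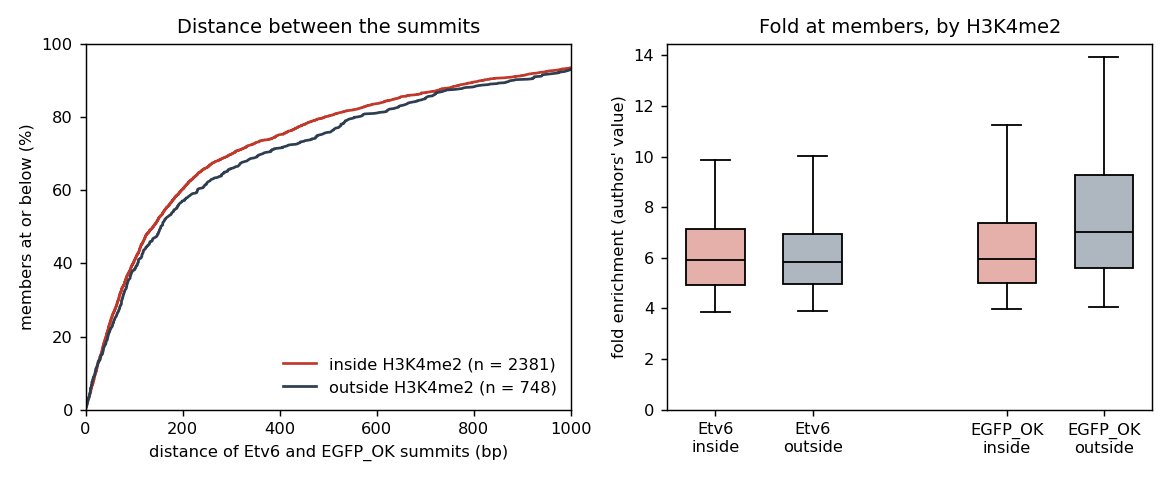
Left: cumulative share of members, in percent, by the distance between Etv6 and EGFP_OK summits in bp, for 2381 members inside and 748 outside H3K4me2. Right: the authors' fold enrichment in each list (box, quartiles with the median; whiskers, 5th to 95th percentile); Etv6 medians are 5.90 inside and 5.86 outside, EGFP_OK medians 5.97 and 7.02.

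Marked members sat in strong and wide H3K4me2 peaks. They occupied 2372 H3K4me2 peaks, 4.89% of that list, and 9 of these held 2 members. The share of H3K4me2 peaks with a member was 13.6% (12.6 to 14.6) in the highest 10% by score and 1.44% (1.13 to 1.82) in the lowest, and 12.8% (11.9 to 13.8) and 0.742% (0.520 to 1.03) in the widest and narrowest 10%. A wider peak has more room for any summit, and these last parts had median widths of 4211 and 669 bp. The same shares were not computed for all Etv6 summits, so whether this gradient is particular to members was not tested. Around all marked Etv6 summits the H3K4me2 peak had a median of 2262 bp and 193 tags. The H3K4me2 peak around a marked member had a median width of 2586 bp (2528 to 2648) and 276 tags (264 to 283). The peaks around Etv6 summits with neither partner had 2079 bp (2041 to 2114) and 178 tags (174 to 183), and those around Etv6 summits with Pax6 but no EGFP_OK 2158 bp and 157 tags (154 to 163). Around sites with both partners the H3K4me2 peak was wider, at 2757.5 bp (2665 to 2832), with 261 tags (250 to 272). The highest 10% of H3K4me2 peaks by score held 27.7% (25.9 to 29.6) of marked members, 19.98% (18.3 to 21.8) of marked sites with both partners, 15.5% (14.7 to 16.4) of those with neither and 7.03% (6.26 to 7.85) of those with Pax6. Among marked Etv6 summits of score 100 to 200 the share was 34.0% (30.9 to 37.1) for members and 17.0% (15.4 to 18.6) for those with neither partner, and among sites with both partners it was 190 of 826, with an interval from 20.2% to 26.0%. Below a score of 100, members at 22.7% (20.4 to 25.1) and sites with both partners at 22.3% (18.5 to 26.5) had overlapping intervals.

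The factor summits were then set against the summit of the H3K4me2 peak, which need not be its middle. The Etv6 summit of a marked member was a median of 386 bp (361 to 403) from the H3K4me2 summit, against 313 bp (306 to 321) for Etv6 peaks with neither partner, whose H3K4me2 peaks were narrower. At the 2265 members with both summits in 1 H3K4me2 peak, the medians were 389 bp for Etv6 and 388 bp for EGFP_OK. EGFP_OK was the closer one at 1162 of them, Etv6 at 1095, and 8 were tied. Both summits were on the same side of the H3K4me2 summit in 85.7% of cases, which their closeness to each other favours.

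**Figure D4:**
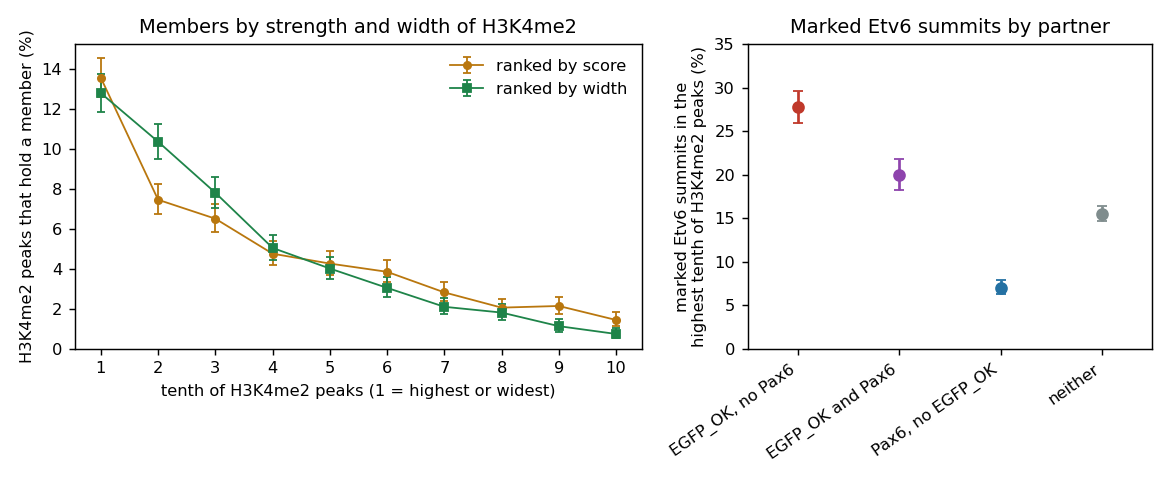
Left: share of H3K4me2 peaks, in percent, that hold a member's Etv6 summit, in 10 equal parts of the H3K4me2 list by score and by width. Right: share of marked Etv6 summits, in percent, that lie in the highest 10% of H3K4me2 peaks by score, by partner, 27.7% for members and 7.03% for sites with Pax6 alone; bars are exact 95% intervals.

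Most unmarked members were not at the edge of an H3K4me2 peak. Their median distance to the nearest one was 9.20 kb (8.13 to 10.5), 105 of them (14.04%, 11.6 to 16.7) lay within 1 kb, 357 (47.7%, 44.1 to 51.4) beyond 10 kb and 40 (5.35%, 3.85 to 7.21) beyond 100 kb. Of unmarked Etv6 peaks with neither partner, 7.74% (7.16 to 8.35) lay within 1 kb and 54.6% (53.5 to 55.7) beyond 10 kb, with intervals apart from those of members. Sites with both partners were at 13.9% (11.5 to 16.6) within 1 kb. Among the 105 close ones, 30 had H3K4me2 within 1 kb on both sides, and at 42 the EGFP_OK summit itself lay inside H3K4me2. The median EGFP_OK fold was 6.32 (6.11 to 6.79) within 1 kb and 7.60 (7.06 to 8.08) at 10 to 100 kb, while the Etv6 fold was 6 (5.56 to 6.44) and 6.01 (5.74 to 6.12). Beyond 100 kb the 40 members had a median EGFP_OK fold of 6.62, with an interval from 5.11 to 7.93 that overlaps both.

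Members were found on every autosome, at unequal shares of the Etv6 peaks. The share ran from 6.03% (4.70 to 7.59) on chromosome 18 to 13.4% (11.9 to 14.9) on chromosome 11. The marked share ran from 68.0% (57.8 to 77.1) of 97 members on chromosome 14 to 86.3% (80.0 to 91.2) of 161 on chromosome 17. It was above that of Etv6 peaks with neither partner, and above that of Etv6 peaks with Pax6 but no EGFP_OK, on 19 of 19 chromosomes, and above that of sites with both partners on 14 of 19. Chromosome 14 also had the most EGFP_OK peaks per Etv6 peak, 1.61, against 0.597 on chromosome 9, where 7.06% of Etv6 peaks were members. The share of members did not follow this ratio throughout. Chromosome 11, with the highest share, had 0.752, and chromosome 10 had 1.13 with 8.60% members.

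**Figure D5:**
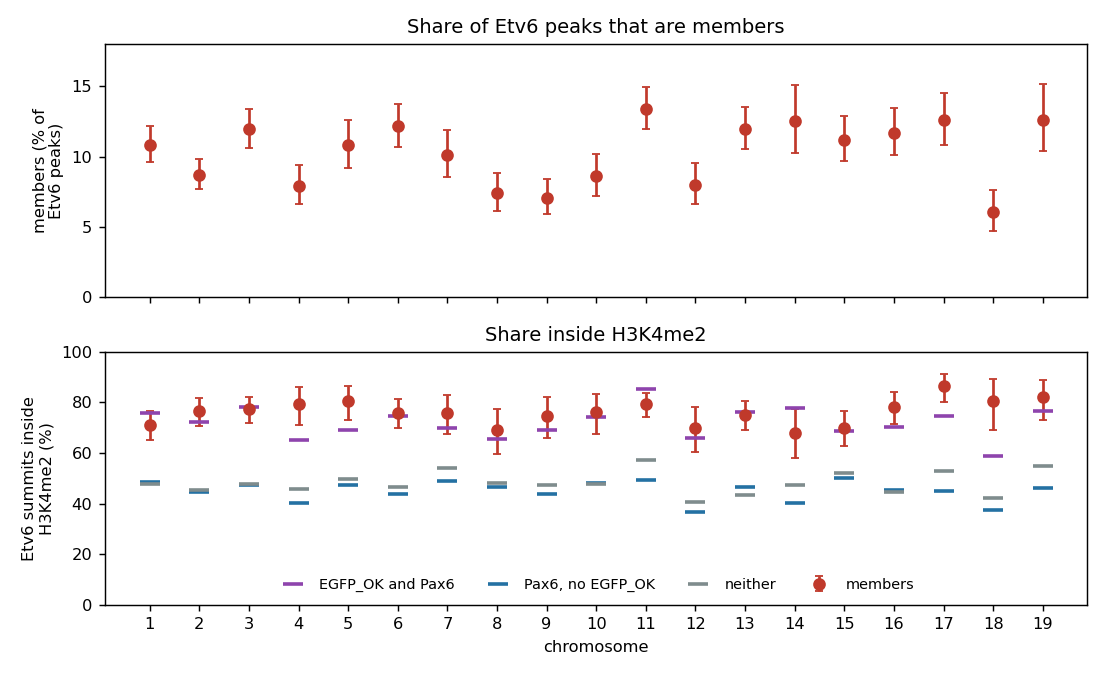
Members as a percentage of the Etv6 peaks of each chromosome (top), and the percentage of Etv6 summits inside H3K4me2 for members (points with exact 95% intervals) and for the other classes of Etv6 peaks (dashes) (bottom). The member share is lowest on chromosome 18 at 6.03% and highest on chromosome 11 at 13.4%, and on every chromosome the points lie above the dashes of both classes without EGFP_OK.

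Most members had no other member close by. There were 179 (5.72%) that had another member within 10 kb, and the median distance to the nearest member was 136 kb. The 3129 members fell in 2685 windows of 100 kb, of which 53 held 3 or more. The fullest window, singled out after its values were seen, was on chromosome 6 from 17400001 to 17500000 and held 5 members, 3 of them marked, among 8 EGFP_OK, 6 Etv6, 2 Pax6 and 7 H3K4me2 summits. A window on chromosome 17 from 24300001 to 24400000 held 4 members, all marked, and no Pax6 summit.

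The following regions were named by their rank in both lists, marked members first, with positions in mm9. A region on chromosome 13 (24110115 to 24111264) held 91 Etv6 tags at 9.70-fold and 92 EGFP_OK tags at 14.1-fold, with 87 tags in its H3K4me2 peak and a Pax6 peak 1.91 kb away. On chromosome 9 (123832388 to 123834614) there were 131 Etv6 tags and 177 EGFP_OK tags, with summits 935 bp apart in an H3K4me2 peak of 289 tags. The region on chromosome 14 (79488999 to 79490143) reached 15.3-fold in Etv6 and 16.5-fold in EGFP_OK, with summits 79 bp apart and 202 H3K4me2 tags. At each of these regions the EGFP_OK fold was the higher one. On chromosome 12 (60140752 to 60142457) EGFP_OK was the taller, with 237 tags against 147 for Etv6, and the nearest Pax6 peak was 781 kb away. On chromosome 4 (116882799 to 116884223) the folds were 10.1 in Etv6 and 11.9 in EGFP_OK, and the H3K4me2 peak of 103 tags was also at 10.1-fold. On chromosome 1 (59951948 to 59953410) the summits were 1120 bp apart, the farthest of the regions named by rank, with an Etv6 fold of 8.52 and an EGFP_OK fold of 6.18. In contrast to the regions before it, Etv6 had the higher fold here. The region on chromosome 19 (45121409 to 45123321) lay in the strongest H3K4me2 peak of these, 4771 bp wide with 909 tags, at rank 452 of that list. On chromosome 3 (114797865 to 114799303) Etv6 reached 10.5-fold and EGFP_OK 9.90-fold, with 194 H3K4me2 tags.

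Of the 8 unmarked members with the best ranks, 3 were on chromosome 14. The first (7469039 to 7470545) held 125 Etv6 and 144 EGFP_OK tags with both summits at 7469793, 251.5 kb from the nearest H3K4me2 peak. The second (64300323 to 64300916) was narrow, at 594 bp, and reached 19.1-fold in Etv6 and 19.96-fold in EGFP_OK with summits 8 bp apart. The other one on this chromosome (3650530 to 3652170) held 114 and 119 tags and was 4070 kb from H3K4me2. Neither this region nor the first had an H3K4me2 peak between it and the chromosome start, and both distances end at the same H3K4me2 peak. These sites thus share 1 stretch without H3K4me2 peaks and are not separate cases of remoteness. Without an input library, the reason for the empty stretch was not tested. All 3 regions on chromosome 14 had their summits within 20 bp of each other. On chromosome 6, one region (37786741 to 37787723) held 86 Etv6 and 90 EGFP_OK tags 30.1 kb from H3K4me2, and another (110177389 to 110179749) held 135 and 106 tags 81.2 kb away. On chromosome 2 (38273141 to 38274186) the folds were 15.4 and 17.5 with summits 18 bp apart, 6.27 kb from H3K4me2. The chromosome 6 and 14 sites were thus at least 30.1 kb from H3K4me2, and the next was much closer. On chromosome 11 (98937544 to 98939097) the tags were 128 and 82, with H3K4me2 2.31 kb and a Pax6 peak 3.24 kb away. The last, on chromosome 9 (34011027 to 34012669), held 88 and 66 tags, 33.5 kb from H3K4me2.

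The members with the highest EGFP_OK folds held far fewer Etv6 than EGFP_OK tags. As they were picked by the EGFP_OK list alone, the choice itself favours this. Among marked ones, a region on chromosome 18 (42467379 to 42468307) had 231 EGFP_OK tags at 22.8-fold and 34 Etv6 tags at 6.43-fold. On chromosome 15 (54071902 to 54073062) there were 297 EGFP_OK tags at 19.8-fold against 67 Etv6 tags at 6.13-fold, and on chromosome 7 (117136654 to 117137743) 148 at 19.3-fold against 60 at 10.2-fold. The unmarked ones held fewer Etv6 tags still. They lay on chromosome 7 (29430235 to 29431070, 144 EGFP_OK and 27 Etv6 tags), chromosome 16 (78275151 to 78275875, 130 and 26 tags) and chromosome 15 (13322848 to 13323591, 145 and 27 tags). Their EGFP_OK folds were between 20.9 and 21.2 and all their summits were within 85 bp. Scaled by kept tags, these 3 sites would hold 5.71 to 5.93 tags in the Pax6 library, under its weakest peak of 10.

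Further regions were picked by their score in 1 list after their values were seen, a choice that favours more tags in that list. The highest Etv6 score of a member was on chromosome 7 (133708817 to 133710490), with 230 Etv6 tags at 18.5-fold and 29 EGFP_OK tags at 6.32-fold, inside H3K4me2 and 77.7 kb from a Pax6 peak. Next came a region on chromosome 10 (14424745 to 14425896), with 144 Etv6 tags at 18.9-fold and 34 EGFP_OK tags, whose summit lay 234 bp from an H3K4me2 peak. On chromosome 7 (54263082 to 54264349) 179 Etv6 tags at 20.3-fold stood against 36 EGFP_OK tags, and the Etv6 summit fell in a gap between H3K4me2 peaks, 269 bp from one and 49 bp from the other. These last 2 were therefore counted as unmarked although H3K4me2 began beside them. The highest EGFP_OK score of a member was on chromosome 16 (42781607 to 42783114), with 545 EGFP_OK tags against 73 Etv6 tags and summits 817 bp apart in an H3K4me2 peak of 240 tags.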

How the data were processed

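ChIP-seq peak lists of 4 libraries were used, grouped by their titles. Per the file headers, the authors called peaks with MACS 1.4.2 on each library separately, without a control file, at a p cutoff of 1e-05 and keeping 1 tag per position. The submitters' processing notes also name CASAVA 1.8.1, BWA 0.6.2 and build mm9. The deposited tag counts are not normalized. The deposited score is 10 times the −log10 of the caller's p-value, and the fold enrichment is a ratio to local background, per the file headers. Both are the authors' values, and scores were used within a list only. Where the folds of the 2 lists are set side by side, they were not corrected for differences in depth or background between the libraries.

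Overlaps, summit positions and distances were computed with pandas 2.3.3 and numpy 2.4.6 under Python 3.11.15, intervals with scipy 1.17.1, figures with matplotlib 3.10.9, and the overlap code was tested on simulated data. Where a member met 2 EGFP_OK peaks, the longer overlap was used. Shares have exact Clopper-Pearson 95% intervals, differences combine those limits by Newcombe's rule, and medians have exact order-statistic intervals. Regions were named by the worse of their score ranks in the 2 lists (8 marked, 8 unmarked) and by EGFP_OK fold (3 of each). The members, lists and rules were chosen with earlier results of these data known. The gene and promoter tables at hand were of GRCm38, so genes, promoter shares, motifs, sequences and marker loci were not analysed here.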

Additional observations from a re-analysis of the deposited data

Results flagged for a closer look

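Chromosomes X and Y and the unplaced sequences lay outside the comparisons and held further sites of the same kind. On chromosome X, 33 of 563 Etv6 peaks overlapped an EGFP_OK peak and no Pax6 peak, and 15 of these (45.5%, 28.1 to 63.6) had the Etv6 summit inside H3K4me2, against 76.1% on chromosomes 1 to 19. All Etv6 peaks of chromosome X together had 21.7% (18.3 to 25.3), against 52.4% on chromosomes 1 to 19. Chromosome Y and unplaced sequences held 5 such sites among 53 Etv6 peaks, 2 of them marked.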

How the results depend on the processing

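Of 48 values recomputed under the alternatives, 33 stayed within the error or the range of the values reported and 15 moved. None of the differences between classes, the only values with a direction, changed sign. The member count was 1865 with summits within 200 bp of each other, 518 with both peaks at a score of 100 or more and 5887 when the Pax6 library was left out, an alternative added after seeing the data. The marked share was 79.5% with that score, 78.9% for any overlap with H3K4me2, 79.5% for a summit within 1 kb of H3K4me2 and 68.7% with H3K4me2 peaks of a score of at least 100. The difference to Etv6 peaks with Pax6 but no EGFP_OK was 27.0 percentage points with a score of at least 100 and 34.9 when weighted by score, and that to peaks with neither partner was 19.04 and 26.1. The difference to sites with both partners was 8.41 when weighted by score. Its interval reached below 0 with summits within 200 bp (-0.0720 to 5.58) and with a score of at least 100 (-0.541 to 8.20). The median summit distance was 124 bp at marked and 131 bp at unmarked members when 50% of the shorter peak had to be shared, and 125 bp at marked members without the Pax6 library. Stricter rules keep fewer peaks. Under the rules on summits, shared length and score, Etv6 peaks whose EGFP_OK peak failed the rule were counted in the classes without EGFP_OK. The differences to those classes under these rules are therefore not to peaks free of any EGFP_OK call. The cause of the shifts was otherwise not tested. Alternatives on promoters and motifs were not run. The Pax6 library kept 0.220 times the tags of the Etv6 library, and the part of depth in the missing Pax6 calls was not tested against other limits. No paired analysis was possible because each group held 1 library.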
